A study of Mus musculus with 50 samples.

Results

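Radiation was compared with no radiation in primary sarcomas of mice that had received an antibody against the checkpoint receptor PD-1, so that the antibody was present on both sides of the comparison. The samples were chosen by their labels: 8 tumors given anti-PD-1 and 20 Gy and 8 tumors given anti-PD-1 and 0 Gy, 16 of the 50 libraries in the series. All 16 were p53/MCA sarcomas of Trp53 fl/fl mice on the 129/SvJae background. They were induced at 6 to 10 weeks of age in the gastrocnemius muscle, with an adenovirus that expresses Cre recombinase (Adeno-Cre) and 300 µg of the carcinogen 3-methylcholanthrene (MCA). At a volume given in the labels as about 150 mm3, the upper end of the range in the study's methods, each tumor's mouse received 200 µg of muDX400, a murine anti-PD-1 antibody, and directly afterwards 0 or 20 Gy, and tumors were harvested 3 days later. Deletion of Trp53, exposure to MCA and PD-1 blockade were therefore shared by both groups. Cre was delivered by a virus injected into the muscle and not driven by a promoter of 1 cell type, each tumor arose separately in its own mouse, and the field of the irradiated mice took in the whole left hind limb. The groups used for comparison were 16 primary tumors given an isotype control antibody with 0 or 20 Gy, and 8 transplant tumors given anti-PD-1 with 0 or 20 Gy.

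Ionizing radiation breaks DNA. Cells with intact p53 respond by transcribing Cdkn1a, the inhibitor of cyclin-dependent kinases that holds the cell cycle, and Mdm2, the ubiquitin ligase of p53, whereas cells that have lost p53 can divide with damaged chromosomes. DNA or RNA in the cytosol is detected by sensors such as cGAS and the RIG-I-like receptors, which induce type I interferons. Interferons act through JAK kinases and STAT proteins on antiviral genes, on antigen presentation and on Cd274, which encodes PD-L1, the ligand of PD-1. PD-1 itself is carried mainly by activated T cells.

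Total counts of the 16 libraries ran from 34742377 to 53341463. Of the 8 irradiated libraries, 3 stood apart from the mean of their group over all tested genes: tumor 4 at a distance of 172, tumor 5 at 142.8 and tumor 1 at 135.9, against 89.7 to 108.01 for the other 5 irradiated tumors and 78.4 to 110.6 for the unirradiated ones (Euclidean distance in log2 CPM, where CPM is a count relative to the scaled total of its library). Results were therefore also computed without these 3 libraries. The mean of 12 skeletal muscle genes ran from 2.25 to 8.33 log2 CPM in unirradiated tumors and from 0.06 to 12.29 in irradiated tumors, with the highest values in irradiated tumors 4 (12.29), 8 (10.15) and 3 (9.32). The mean of 10 mesenchymal genes expected of a sarcoma, such as Vim, was 8.62 to 9.94 log2 CPM without and 8.43 to 10.16 with radiation, and that of 3 tested keratinocyte genes was -2.32 to 0.85 over all 16 tumors. In whole tumors, fewer cells of a type and less RNA per cell cannot be told apart.

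Of 19327 genes tested with edgeR's quasi-likelihood test, 2158 passed an adjusted p of 0.05 and are counted as called (11.2% of genes). Of these, 1530 were higher (7.92% of genes) and 628 were lower (3.25%) after radiation, so that 70.9% of the called genes were higher. Genes that changed at least 2-fold numbered 1007 higher and 182 lower. The median log2 fold change over all genes was 0.02. Interferon-stimulated genes, inflammatory cytokines and the granzyme genes Gzma and Gzmb rose, while sterol synthesis and mitotic genes fell. Without the 3 libraries that stood apart, 1988 genes were called, of which 1304 were higher and 684 lower, and 1575 were shared with the full set. When only the 16 libraries compared were fitted, 805 genes were called, and the counts below were then 4 for p53 targets, 7 for interferon-gamma genes, 3 for class I presentation, 4 for macrophages, 2 for cell death, 1 for myogenic factors and 6 for G2/M genes. P-values measured the spread between tumors of different mice within groups. That spread was estimated over all groups of the model, including transplant tumors grown from a single cell line. The fit that called 805 genes took the spread from the 16 compared libraries alone. Why fewer genes were called there was not tested.

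**Figure D1:**
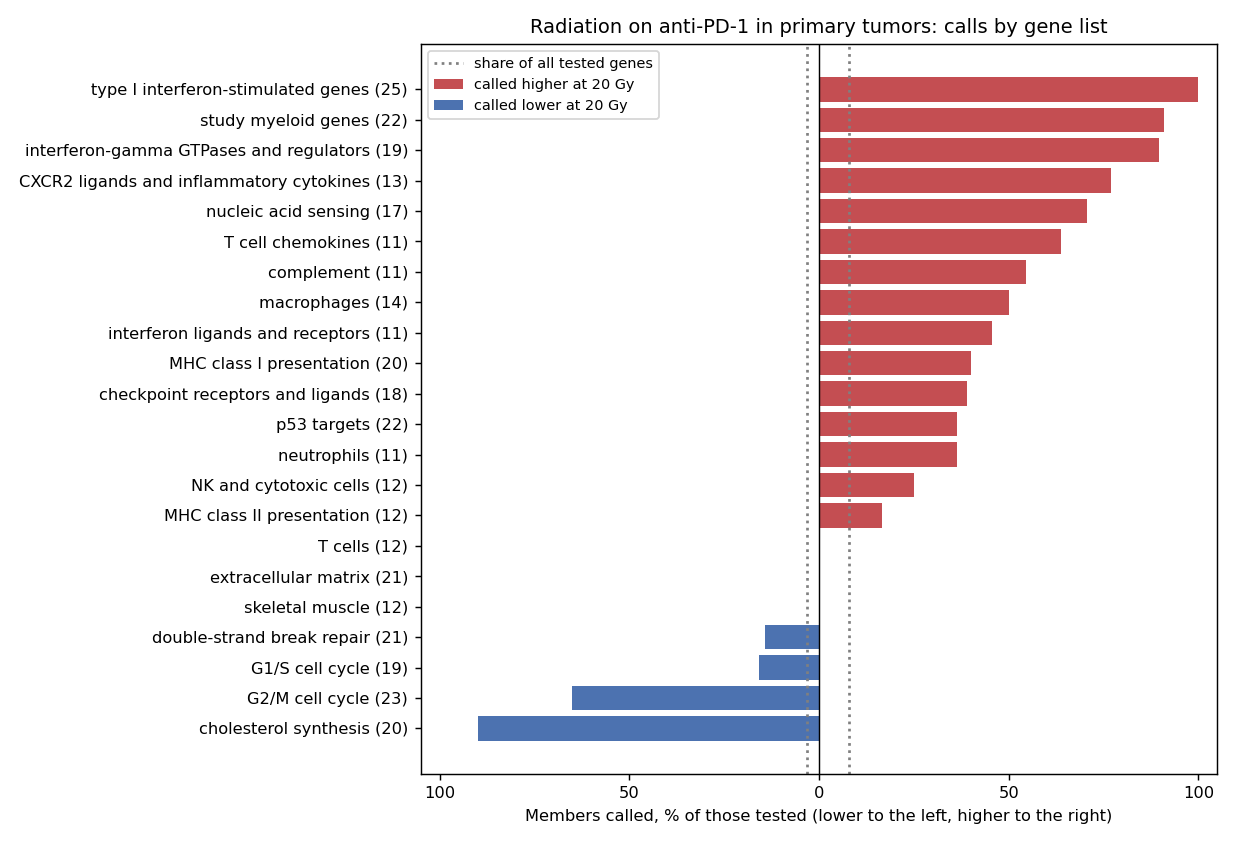
Share of the tested members of each gene list that were called, as percent of the members tested (number tested in brackets), lower after radiation to the left and higher to the right; dotted lines mark the share among all 19327 genes (7.92% higher, 3.25% lower). All 25 type I interferon-stimulated genes were called higher and 18 of 20 cholesterol synthesis genes were called lower.

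Trp53 (chr11:69580359-69591873, plus strand, GRCm38) was still transcribed in every tumor. It measured 21, 25.7 and 48.5 CPM (lowest, median and highest of 8) without radiation and 21.4, 31.5 and 51.9 CPM with radiation. The groups overlapped, and the log2 fold change was 0.11 (SE 0.18, adjusted p = 0.737, edgeR). Both groups carried the deletion, so this level does not check it, and reads of normal cells in the tumor and of exons outside the deleted part are counted as well.

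Cdkn1a (chr17:29090976-29100727, plus strand), the p53 target that encodes p21, had the smallest unadjusted p-value of the comparison. It measured 32.1, 46.4 and 55.8 CPM (lowest, median and highest) in unirradiated tumors and 78.8, 228 and 469 CPM in irradiated tumors. Every irradiated tumor was above every unirradiated one. The log2 fold change was 2.44 (SE 0.24, adjusted p = 4.96e-09, edgeR), and the call was kept in all 25 alternative analyses. The lowest irradiated value was that of tumor 5 and the highest that of tumor 4.

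Of 22 p53 target genes, 8 rose, none fell and 14 were not called, with a median log2 fold change of 0.35. Besides Cdkn1a these were Ccng1 (cyclin G1), Trp53inp1, Gdf15 (a secreted stress cytokine), the death receptor gene Fas, Mdm2, the pro-apoptotic gene Bax and the nuclease gene Aen. Mdm2 measured 44.8, 57.9 and 73.5 CPM without and 52.6, 84.8 and 102.1 CPM with radiation, with 7 of 8 irradiated tumors above all unirradiated ones and a log2 fold change of 0.51 (SE 0.11, adjusted p = 0.00224, edgeR). The pro-apoptotic genes Bbc3 and Pmaip1 were not called, at log2 fold changes of 0.28 and 0.61.

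The mean of the p53 target list was highest in irradiated tumors 4, 3 and 8, at 5.60, 5.18 and 5.17 log2 CPM against 4.30 to 4.57 in unirradiated tumors. These were also the irradiated tumors with the highest skeletal muscle means, and the part of muscle in the p53 list was not tested. With the muscle mean as a covariate 8 of the 22 genes were still called, and the log2 fold change of Cdkn1a was 2.38 and that of Ccng1 1.07. Ccng1 ran from 81.1 to 110.97 CPM without radiation and reached 805.5 CPM in irradiated tumor 4, and its log2 fold change fell from 1.35 to 0.82 (adjusted p = 0.0871 by edgeR) without that tumor.

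**Figure D2:**
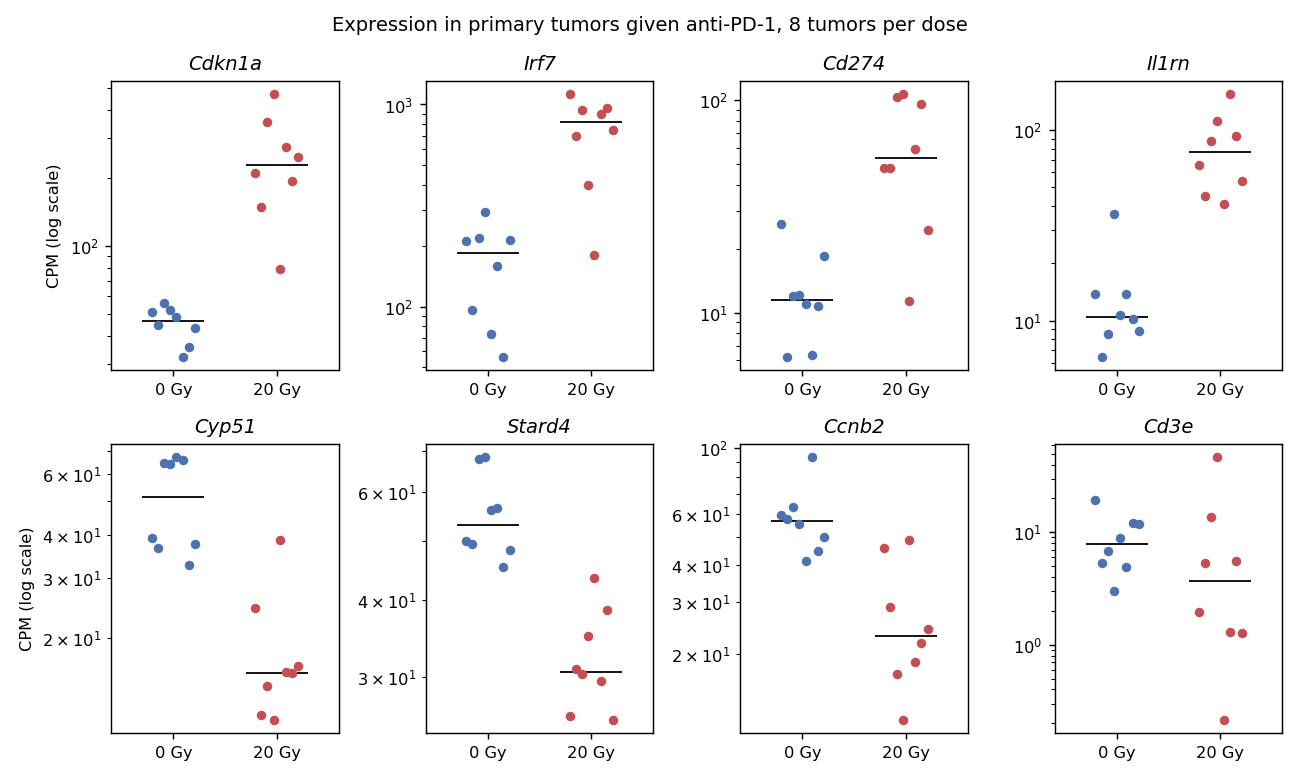
CPM on a log axis of 8 genes in the 8 tumors given 0 Gy and the 8 given 20 Gy, all with anti-PD-1; each point is 1 tumor and the bar is the group median. Cdkn1a and Il1rn show no overlap upwards and Stard4 shows none downwards. Irradiated values of Cd3e lie below, within and above the unirradiated range.

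Of 17 tested genes of nucleic acid sensing, 12 rose and none fell, with a median log2 fold change of 0.77. Dhx58, a RIG-I-like receptor that binds RNA, measured 14.4, 26.2 and 29.4 CPM without and 30.3, 74.9 and 112.6 CPM with radiation. Its groups did not overlap, and the log2 fold change was 1.63 (SE 0.29, adjusted p = 2.59e-04, edgeR). The RNA sensors Ifih1 (MDA5) and Ddx58 (RIG-I) rose by 1.47 and 1.11 on the log2 scale, the Z-form nucleic acid sensor Zbp1 by 1.86 and Tmem173, which encodes STING, by 0.54 (adjusted p = 0.0462, edgeR). The call of Tmem173 was lost in 14 of 25 alternatives. The adaptor gene Mavs and the transcription factor gene Irf3 were not called, at -0.06 and -0.16.

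Among 11 interferon ligands, receptors and signaling genes, 5 rose: the kinase genes Jak1, Jak2 and Tyk2 and the feedback inhibitor genes Socs1 and Socs3. Jak2 rose by 0.63 (SE 0.13, adjusted p = 0.00105, edgeR) and Socs3 by 1.33 (SE 0.27, adjusted p = 0.00127, edgeR). The ligand genes were near the detection limit. Ifnb1, which encodes interferon beta, measured 0, 0.0518 and 0.324 CPM without and 0.0337, 0.145 and 0.766 CPM with radiation, and Ifng, which encodes interferon gamma, had medians of 0.195 and 0.384 CPM. Neither passed the test, with adjusted p-values of 0.0967 and 0.11 by edgeR.

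All 25 type I interferon-stimulated genes rose, with log2 fold changes of 0.80 to 3.31 and a median of 1.79. The list mean was 4.22 to 6.24 log2 CPM without and 5.49 to 7.90 with radiation, and 6 of 8 irradiated tumors were above all unirradiated tumors. Irradiated tumors 5 (5.49) and 4 (5.96) lay within the range of the unirradiated ones. Without the 3 libraries that stood apart the count was again 25, and over all alternatives it was 23 to 25.

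Irf7 (chr7:141262706-141266481, minus strand), a transcription factor that amplifies interferon production, measured 56.3, 185 and 294 CPM without and 180, 823 and 1124 CPM with radiation. Only irradiated tumor 5 overlapped the unirradiated tumors. The log2 fold change was 2.17 (SE 0.39, adjusted p = 2.76e-04, edgeR). Rsad2 (chr12:26442746-26456452, minus strand), which encodes the antiviral enzyme viperin, measured 4.84, 21.6 and 62.9 CPM without and 18.3, 147 and 268 CPM with radiation. In Rsad2 irradiated tumors 4 and 5 overlapped the unirradiated range, and the log2 fold change was 2.39 (SE 0.46, adjusted p = 6.04e-04, edgeR).

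Slfn4, a gene of the Schlafen family in myeloid cells, rose most of this list, by 3.31 (SE 0.67, adjusted p = 0.00109, edgeR). It measured 4.59, 12.8 and 90.4 CPM without and 12.3, 140.98 and 656 CPM with radiation. Factors of ISGF3, the complex that transcribes these genes, rose less, with Stat2 at 1.35 and Irf9 at 0.80. Counts of near-identical relatives such as Ifit3 and Ifit3b or the Slfn genes are uncertain where reads could be assigned to either.

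ISGF3 binds the interferon-stimulated response element, whose core was searched as GAAANNGAAA on either strand in windows from 250 bases before to 50 after the start of each gene, from RefSeq on GRCm38.p6. The 4 stretches of 100 bases below, written 5′ to 3′ on the strand of the gene, are shown because these genes rose by 2.39, 2.28, 2.06 and 1.97 on the log2 scale and hold the core, which is in capitals (TTTC at its ends where the core is on the other strand). They lie at chr12:26456518-26456617 (Rsad2, minus strand), chr5:120777680-120777779 (Oas3, minus strand), chr19:34607758-34607857 (Ifit3b, plus strand) and chr19:34583362-34583461 (Ifit3, plus strand).
Rsad2: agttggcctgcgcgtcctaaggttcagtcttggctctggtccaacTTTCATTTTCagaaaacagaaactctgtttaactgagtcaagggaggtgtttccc
Oas3: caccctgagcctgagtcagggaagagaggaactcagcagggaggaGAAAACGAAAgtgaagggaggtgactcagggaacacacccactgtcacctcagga
Ifit3b: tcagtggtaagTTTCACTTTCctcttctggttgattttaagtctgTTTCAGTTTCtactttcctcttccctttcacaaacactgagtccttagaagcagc
Ifit3: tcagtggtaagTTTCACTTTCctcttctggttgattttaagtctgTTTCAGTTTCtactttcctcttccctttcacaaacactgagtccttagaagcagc

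The stretches of Ifit3 and Ifit3b were identical letter by letter and hold the core at 2 places. The core was in 9 of 19 windows of type I interferon-stimulated genes and in 9 of 12 windows of interferon-gamma GTPases and regulators. It was in 11.4% of the 1081 windows of genes called higher, 3.05% of the 459 windows of genes called lower and 3.83% of all 13123 windows of tested genes. Only 67.9% of tested genes with a symbol had a window, so these shares cannot stand for all called genes. A match is a description of letters and not of binding.

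Genes listed for their link to interferon gamma rose as well, and which interferon acted on them was not tested. Of 19 interferon-gamma GTPases and regulators, 17 rose and none fell, with a median log2 fold change of 1.41, and 7 to 18 were called over the alternatives (10 with limma voom). Gbp5, a guanylate-binding protein that acts against intracellular microbes, measured 13.5, 25.1 and 52.2 CPM without and 17, 108.3 and 287 CPM with radiation. All but 1 of the irradiated tumors were above all unirradiated ones, and the log2 fold change was 2.12 (SE 0.37, adjusted p = 2.14e-04, edgeR). Irgm1 rose by 1.49 and the transcription factor Irf1 by 1.0, while Irf8 and the class II regulator Ciita were not called, at 0.81 and 0.66. The list mean of irradiated tumor 5, 4.10 log2 CPM, was below that of every unirradiated tumor (4.57 to 6.35).

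In antigen presentation on MHC class I, 8 of 20 genes rose and none fell, with a median log2 fold change of 0.82. The nonclassical class I gene H2-T23 rose by 1.36 (SE 0.30, adjusted p = 0.00257, edgeR), the peptide transporter genes Tap1 and Tap2 by 1.09 and 0.84, and Tapbp (tapasin, which loads peptide) by 0.92. The class I gene H2-K1 rose by 1.02, with 554, 938 and 1870 CPM without and 518, 1925 and 3533 CPM with radiation. B2m, the shared light chain, was not called, at 0.62 (SE 0.26, adjusted p = 0.115, edgeR). The chaperone genes Calr, Canx and Pdia3 were at -0.11, -0.13 and -0.19. The count of called class I genes was 14 without irradiated tumor 5 and 4 without irradiated tumor 3, and 5 without irradiated tumor 7 or without unirradiated tumor 2, 5 or 7, and the call of H2-K1 was lost in 10 of 25 alternatives.

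Of 12 genes of class II presentation, 2 rose, the lysosomal protease gene Ctss (1.08) and the thiol reductase gene Ifi30 (0.73). By comparison, 7.92% of all tested genes were called higher. No other gene of this list had an unadjusted p under 0.05, and the lowest was at -0.75. Without irradiated tumor 4 Ifi30 was at 0.61 and not called. H2-Ab1, a class II beta chain, measured 359, 830 and 1411 CPM without and 71.3, 466 and 4130 CPM with radiation, and the log2 fold change was 0.33 (SE 0.53, adjusted p = 0.748, edgeR). The irradiated tumors spread far more widely than the unirradiated ones, from tumor 6 at the low end to tumor 4 at the high end. The fitted change of H2-Ab1 was -0.48 without tumor 4, so its direction rested on that library.

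The RNA of a ligand of PD-1 rose, and its protein was not measured here. By mass cytometry, which measures protein, the study found macrophages with PD-L1 to be relatively rare in primary tumors. Their frequency did not change significantly after radiation there. Cd274 (chr19:29367455-29388095, plus strand) measured 6.18, 11.5 and 26.3 CPM without and 11.3, 53.7 and 107.02 CPM with radiation. Of the 8 irradiated tumors, 6 were above all unirradiated tumors, and tumors 5 and 8 were not. The log2 fold change was 2.27 (SE 0.39, adjusted p = 1.72e-04, edgeR). Pdcd1lg2, which encodes the other PD-1 ligand, rose by 2.11 from a low level, with medians of 0.441 and 0.82 CPM.

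Of 18 checkpoint receptors and ligands 7 rose, with a median log2 fold change of 0.57. Besides both PD-1 ligands these were Lag3 (1.63, SE 0.32), Havcr2 (0.80), the CTLA-4 and CD28 ligand genes Cd80 (1.62) and Cd86 (0.92), and Ido1, an enzyme that degrades tryptophan. Ido1 rose by 3.24 (SE 0.68, adjusted p = 0.00149, edgeR) from a median of 0.18 to 1.14 CPM. Pdcd1, which encodes PD-1, measured 2.29, 6.09 and 12.3 CPM without and 0.411, 1.67 and 24.5 CPM with radiation, and was not called (-0.10, SE 0.56, adjusted p = 0.934, edgeR). Of the irradiated tumors, 5 were below all unirradiated ones for Pdcd1 and 1 was above them. Without irradiated tumor 4 the count of called checkpoint genes was 4, and Pdcd1lg2 was among those lost (1.21). The calls of Havcr2 and Cd86 were lost in 11 and 8 of 25 alternatives.

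T cell genes did not pass the test in either direction. None of 12 genes of the T cells list was called by edgeR, none had an unadjusted p under 0.05, and the median log2 fold change was 0.17. Cd3e, a chain of the T cell receptor complex, measured 3.03, 7.83 and 19.4 CPM without and 0.215, 3.67 and 46.8 CPM with radiation (log2 fold change 0.08, SE 0.59, 95% interval -1.12 to 1.27). In 4 of 8 irradiated tumors Cd3e was below all unirradiated tumors, and in tumor 4 it was above them. Cd8a was at 0.19 (SE 0.59). Without irradiated tumor 4 the median of the T cells list was -0.75, and the count called was 0. Within the irradiated group the means of the T cell and class II lists were highest in tumors 4 and 3, which were also among those with the highest muscle means, and the part of muscle was not tested.

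Genes of cytotoxic granules rose although the T cell receptor genes were not called. Gzmb, which encodes granzyme B, measured 5.92, 14.1 and 30.9 CPM without and 4.91, 61.6 and 146 CPM with radiation. In 6 irradiated tumors Gzmb was above all unirradiated tumors and in tumor 5 below them. The log2 fold change was 2.23 (SE 0.56, adjusted p = 0.00696, edgeR). Gzma rose by 2.63 and the perforin gene Prf1 by 2.26, and all 3 calls were kept in all 25 alternatives. The other 9 of 12 genes of the NK and cytotoxic cells list were not called, among them the NK receptor gene Ncr1 (0.65) and Gzmk (-0.25). The lists of regulatory T cells (6 genes) and of B and plasma cells (7 genes) had no called member by edgeR, with 1 gene each at an unadjusted p under 0.05 and 1 gene each called by DESeq2.

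Of 11 chemokine and receptor genes of T cell recruitment, 7 rose, among them the CXCR3 ligand genes Cxcl9, Cxcl10 and Cxcl11 and the chemokine genes Ccl3, Ccl4 and Ccl5. Cxcl10 measured 38.4, 86.6 and 223 CPM without and 84.4, 334 and 1008 CPM with radiation, a log2 fold change of 2.07 (SE 0.47, adjusted p = 0.00328, edgeR). Cxcl9, an interferon gamma target, rose by 1.82 (SE 0.55, adjusted p = 0.0266, edgeR), but the call was lost in 8 of 25 alternatives. The receptor genes Cxcr3 and Cxcr6 were not called, at -0.13 and 0.18.

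**Figure D3:**
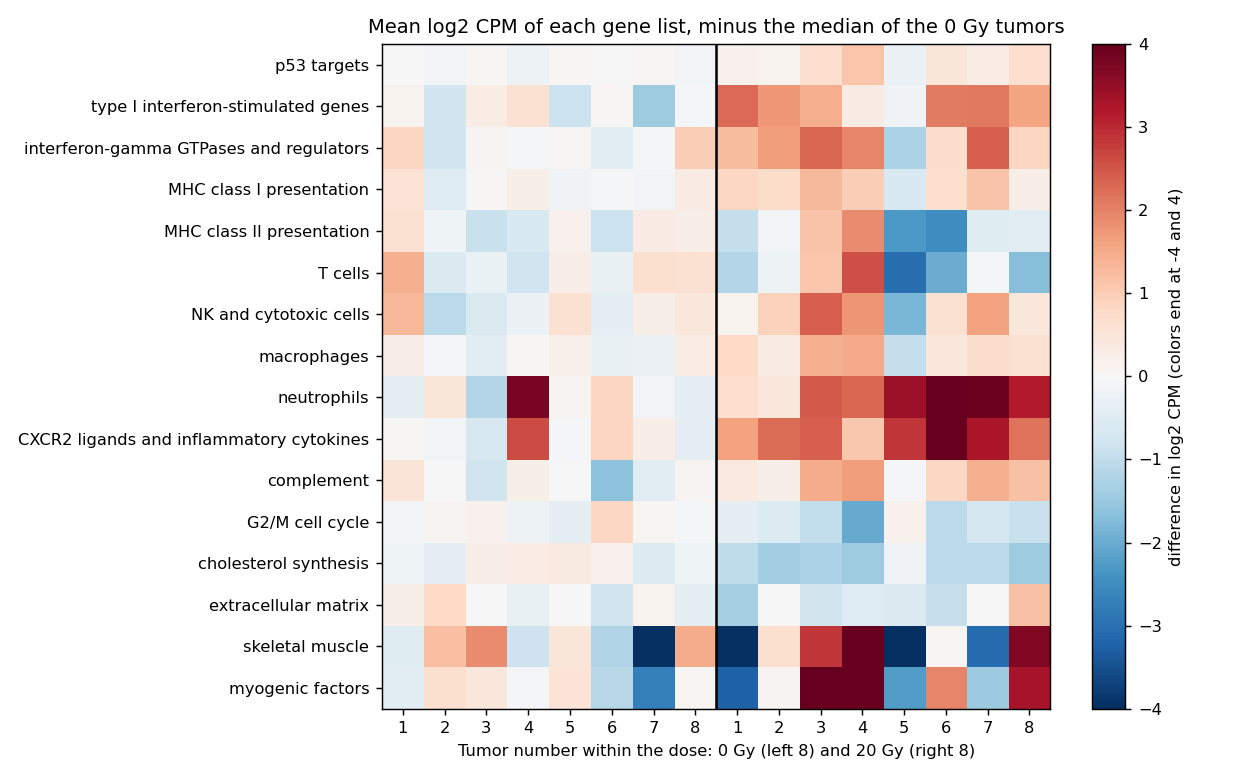
Mean log2 CPM of the genes of each list in each tumor, minus the median of the unirradiated tumors; columns 1 to 8 on the left are the 0 Gy tumors and on the right the 20 Gy tumors, and colors end at differences of -4 and 4. Irradiated tumor 5 lies below the other irradiated tumors in the interferon-gamma list and above them in the cholesterol list, and irradiated tumors 3, 4 and 8 hold the highest muscle values.

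Inflammatory cytokines rose. Of 13 CXCR2 ligands and inflammatory cytokines, 10 rose and none fell, with a median log2 fold change of 2.33. Il1rn (chr2:24336853-24351494, plus strand), which encodes the secreted antagonist of the IL-1 receptor, measured 6.44, 10.4 and 36.4 CPM without and 41, 76.7 and 154 CPM with radiation. Its groups did not overlap, and the log2 fold change was 2.59 (SE 0.33, adjusted p = 5.38e-06, edgeR). Il1a rose by 3.60 (SE 0.72) from a median of 0.1 to 1.47 CPM, while Il1b was not called (1.0, SE 0.59, adjusted p = 0.287, edgeR). Unirradiated tumor 4 held the highest Il1b value of all 16 tumors, 111.8 CPM.

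The neutrophil-attracting chemokine genes Cxcl1, Cxcl2 and Cxcl3 rose by 2.33, 3.24 and 3.35 on the log2 scale. Without irradiated tumor 6 the calls of Cxcl1, Cxcl2 and Cxcl3 were lost, at 1.65, 2.06 and 1.52, and the count of this list was 7. Il6 rose by 3.33 (SE 0.70, adjusted p = 0.00151, edgeR), and its relatives Lif, Osm and Il11 by 2.07, 1.74 and 2.65. Tnf rose by 1.37. Of 11 neutrophil genes, 4 rose: Csf3r, the receptor of G-CSF (1.72, SE 0.39), the decoy receptor gene Il1r2 (2.44), Retnlg (3.09) and the collagenase gene Mmp8. Mmp8 measured 0.285, 0.422 and 3.54 CPM without and 0.848, 10.4 and 134.3 CPM with radiation, and rose by 4.91 (SE 0.85, adjusted p = 2.14e-04, edgeR).

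The defining neutrophil genes S100a8 and Ly6g were not called, at 1.89 (SE 1.08) and 2.35 (SE 0.85). S100a8 measured 0.389, 1.12 and 91.2 CPM without and 3.26, 22.1 and 200 CPM with radiation. The list mean was -1.61 to 3.36 log2 CPM without and -0.02 to 4.51 with radiation, and unirradiated tumor 4 stood above the other 7 unirradiated tumors, which did not exceed 0.40. Over the alternatives 2 to 9 neutrophil genes were called, with 9 when unirradiated tumor 4 was left out.

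Some macrophage genes rose. Of 14 lineage genes, 7 rose and none fell, with a median log2 fold change of 0.77. Cd68, a lysosomal glycoprotein of macrophages, measured 65, 96.1 and 115.6 CPM without and 100, 168 and 264 CPM with radiation, a log2 fold change of 0.94 (SE 0.20, adjusted p = 0.0016, edgeR). The Fc receptor genes Fcgr1, Fcgr3 and Fcgr2b rose by 1.25, 1.16 and 1.15, and the efferocytosis receptor gene Mertk by 1.07. The complement C1q genes C1qa, C1qb and C1qc were not called, at 0.64, 0.47 and 0.47. Without irradiated tumor 5 the count of called macrophage genes was 11.

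Genes listed for opposite macrophage states were among those that rose, where 7.92% of all tested genes were called higher. Of 14 genes listed for alternatively activated or resident macrophages 3 rose, Arg1 (arginase), Chil3 and Ptgs2. Stab1 was at -0.25, and the lowest gene of that list at -0.79. Its count was 1 to 5 over the alternatives, and Ptgs2 was at 1.46 and not called without irradiated tumor 6. Arg1 measured 1.05, 7.95 and 17.3 CPM without and 8.94, 47.8 and 250 CPM with radiation, a log2 fold change of 2.85 (SE 0.70, adjusted p = 0.00594, edgeR). Of 9 genes of classically activated macrophages 4 rose, Acod1, Cd86, Slamf7 and Il27. Acod1, the enzyme that makes itaconate, rose by 3.11 (SE 0.58, adjusted p = 4.44e-04, edgeR) from a median of 4 to 34 CPM, and Nos2 was not called (1.24). Leaving out irradiated tumor 3 or 4, or unirradiated tumor 2, 3 or 6, took the count of the latter list to 2.

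The monocyte attractant genes Ccl2, Ccl7 and Ccl8 rose by 2.01, 1.59 and 1.49, although the call of Ccl8 was lost in 16 of 25 alternatives. Cx3cr1, a chemokine receptor of resident macrophages and patrolling monocytes, was lower in 6 of 8 irradiated tumors than in any unirradiated tumor but did not pass the test (-1.19, SE 0.42, adjusted p = 0.0549, edgeR). Of 11 dendritic cell genes only the integrin gene Itgax rose (1.50, SE 0.30), close to the 7.92% of all tested genes called higher. Xcr1 and Clec9a, markers of conventional type 1 dendritic cells, were at -0.71 and -0.40. Complement genes rose in 6 of 11 cases. Among these Cfb (factor B) rose by 2.50, and Cfp (properdin) measured 50.5, 59.9 and 80.8 CPM without and 84.9, 154 and 283 CPM with radiation, with no overlap (1.41, SE 0.26, adjusted p = 3.10e-04, edgeR).

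Of 22 genes that the study named for myeloid cells, 20 rose, with a median log2 fold change of 1.20. That list was drawn up by the study on tumors of this model and is not independent evidence of its direction. Ly6c2, a marker of inflammatory monocytes, measured 7.32, 18 and 38.6 CPM without and 16.7, 118.1 and 261 CPM with radiation, a log2 fold change of 2.43 (SE 0.54, adjusted p = 0.00238, edgeR). The lysosomal protease gene Ctsb rose by 0.83 (SE 0.15) from a median of 1511 to 2734 CPM. Irradiated tumor 5 had a list mean of 6.35 log2 CPM, against 7.85 or more in the other 7 irradiated tumors.

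Genes of cell death rose in 6 of 14 cases, with no gene lower. These were the death receptor gene Fas (0.98) and ligand gene Tnfsf10 (TRAIL, 1.33), the inflammatory caspase genes Casp1 (1.05) and Casp4 (1.32), the pore-forming protein gene Gsdmd (0.70, SE 0.16, adjusted p = 0.00262, edgeR) and Ripk1 (0.30). The call of Casp4 was lost in 9 of 25 alternatives.

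Mitotic genes fell. Of 23 G2/M genes 15 fell and none rose, the median log2 fold change was -0.78, and 22 had an unadjusted p under 0.05. Ccnb2 (chr9:70407692-70421547, minus strand), a mitotic cyclin, measured 41.3, 56.4 and 93.6 CPM without and 11.9, 23 and 48.8 CPM with radiation. In 6 of 8 irradiated tumors it was below all unirradiated ones, and the log2 fold change was -1.10 (SE 0.22, adjusted p = 0.00109, edgeR). Ccna2 fell by 0.99 on the log2 scale, the proliferation marker Mki67 by 0.90, the kinase gene Plk1 by 0.90 and the survivin gene Birc5 by 0.88. Cdk1 was not called (-0.56, SE 0.26, adjusted p = 0.151, edgeR).

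The count of called G2/M genes ran from 6 to 21 over the alternatives, and it was 19 without the 3 libraries that stood apart. The list mean was 5.61 to 6.81 log2 CPM without and 3.96 to 6.14 with radiation. Irradiated tumor 4 had the lowest mean and irradiated tumor 5 the highest of its group, and among the unirradiated tumors tumor 6 was highest. The count was 9 without irradiated tumor 4, 8 without unirradiated tumor 6 and 21 without irradiated tumor 5.

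Promoters of mitotic genes often hold the cell cycle homology region (CHR), searched as TTTGAA on either strand. The 3 stretches of 100 bases below are shown because these genes fell and hold the motif, which is in capitals. They lie on the minus strand of GRCm38.p6 at chr9:70421667-70421766 (Ccnb2), chr7:135716423-135716522 (Mki67) and chr4:118437344-118437443 (Cdc20, an activator of the anaphase-promoting complex that fell by 0.85 on the log2 scale), and come from RefSeq.
Ccnb2: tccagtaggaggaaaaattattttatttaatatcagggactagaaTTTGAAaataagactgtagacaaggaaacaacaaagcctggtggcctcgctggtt
Mki67: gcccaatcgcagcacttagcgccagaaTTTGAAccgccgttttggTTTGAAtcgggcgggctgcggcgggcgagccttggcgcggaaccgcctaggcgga
Cdc20: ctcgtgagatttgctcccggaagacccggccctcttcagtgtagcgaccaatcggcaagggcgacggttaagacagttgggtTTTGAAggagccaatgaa

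The motif was in 14 of 18 windows of G2/M genes, in 21.4% of the windows of genes called lower, in 16.8% of those called higher and in 15.2% of all windows of tested genes. In Cdc20 it ended 12 bases before the start of the gene, and Mki67 held it at 2 places in the stretch shown.

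Fewer genes of DNA replication and repair were called. Of 19 G1/S genes 3 fell: Mcm5, a subunit of the replicative helicase (-0.74), and Rrm1 and Rrm2, the subunits of ribonucleotide reductase (-0.73 and -0.57). All 19 log2 fold changes were negative, from -0.74 to -0.24, and 11 genes had an unadjusted p under 0.05. Of 21 double-strand break repair genes 3 fell, Brca2 (-0.83, SE 0.26), Xrcc2 (-0.45) and H2afx (-0.66), and the damage kinase gene Atm was at 0.16. None of these genes rose. These counts rested on few libraries: without irradiated tumor 4 or without unirradiated tumor 6 they were 1 and 0, and without irradiated tumor 5 they were 7 and 9. The G1/S count was 11 without irradiated tumor 1, and the repair count 1 without irradiated tumor 3, 6 or 8 or unirradiated tumor 7.

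Cholesterol synthesis fell almost throughout. Of 20 genes, 18 fell and none rose, with a median log2 fold change of -0.93, and 16 to 19 were called over the alternatives. Stard4, a sterol carrier protein, measured 45.3, 53 and 68.4 CPM without and 25.6, 30.6 and 43.5 CPM with radiation. Every irradiated tumor was below every unirradiated one, and the log2 fold change was -0.77 (SE 0.12, adjusted p = 4.30e-05, edgeR). Cyp51 (chr5:4081145-4104746, minus strand), the sterol demethylase, measured 32.7, 51.6 and 67.3 CPM without and 11.6, 15.9 and 38.6 CPM with radiation, and 7 of 8 irradiated tumors were below all unirradiated ones (-1.45, SE 0.25, adjusted p = 2.24e-04, edgeR).

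The enzymes fell along the pathway: Hmgcs1 (-1.01), which makes HMG-CoA, then Idi1 (-1.66), Fdps (-1.54), Sqle (squalene epoxidase, -1.21) and Cyp51 (-1.45). Srebf2, the transcription factor of the pathway, fell by 0.95 on the log2 scale (SE 0.20, adjusted p = 0.00136, edgeR), with medians of 178 CPM without and 82.4 CPM with radiation. The 2 genes not called were Dhcr7 (-0.35) and Fdft1 (-0.55). Irradiated tumor 5 had a list mean of 5.12 log2 CPM, within the unirradiated range of 4.72 to 5.61, and the other 7 irradiated tumors were at 4.25 or lower, below all unirradiated tumors.

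Of 7 fatty acid synthesis genes 2 fell, the elongase gene Elovl6 (-1.20, SE 0.26, adjusted p = 0.00221, edgeR) and the desaturase gene Scd2 (-0.87). The call of Scd2 was lost in 6 of 25 alternatives. Fasn and Acaca were not called, at -0.73 and -0.49.

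The 15 genes with the largest positive change among those called at an average of at least 2 log2 CPM were Sln, Actc1, Myh3, Mmp8, Lrtm1, Kera, Itgb1bp2, Ucp3, Hhatl, Myh8, Chrnd, F10, Gm15056, Apol7c and Ctxn3, with log2 fold changes of 5.57 to 3.41. Many are muscle genes: Sln encodes sarcolipin, a regulator of the calcium pump, Actc1 cardiac actin, which developing muscle also makes, Myh3 and Myh8 the embryonic and perinatal myosin heavy chains, and Chrnd a subunit of the muscle acetylcholine receptor. Their large fold changes came from few tumors. Sln measured 409 CPM in irradiated tumor 4, 36.1 in tumor 8 and 31.6 in tumor 3, and at most 2.2 CPM in the other 5 irradiated and 3.24 CPM in the unirradiated tumors. Myh3 measured 118.8 CPM in irradiated tumor 3 and 18.8 CPM in tumor 4.

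Without irradiated tumor 4, 10 of these 15 genes lost their call. Myh3 lost it without irradiated tumor 3 (log2 fold change 2.66 in place of 4.92), and Kera, which encodes the matrix protein keratocan, without tumor 8 (0.39 in place of 4.58). Mmp8 and F10 kept theirs in all 25 alternatives. F10, which encodes coagulation factor X and is also made by macrophages, measured 0.452, 1.38 and 3.91 CPM without and 3.64, 17.1 and 45.5 CPM with radiation, with 7 of 8 irradiated tumors above all others (3.51, SE 0.60, adjusted p = 1.69e-04, edgeR).

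**Figure D4:**
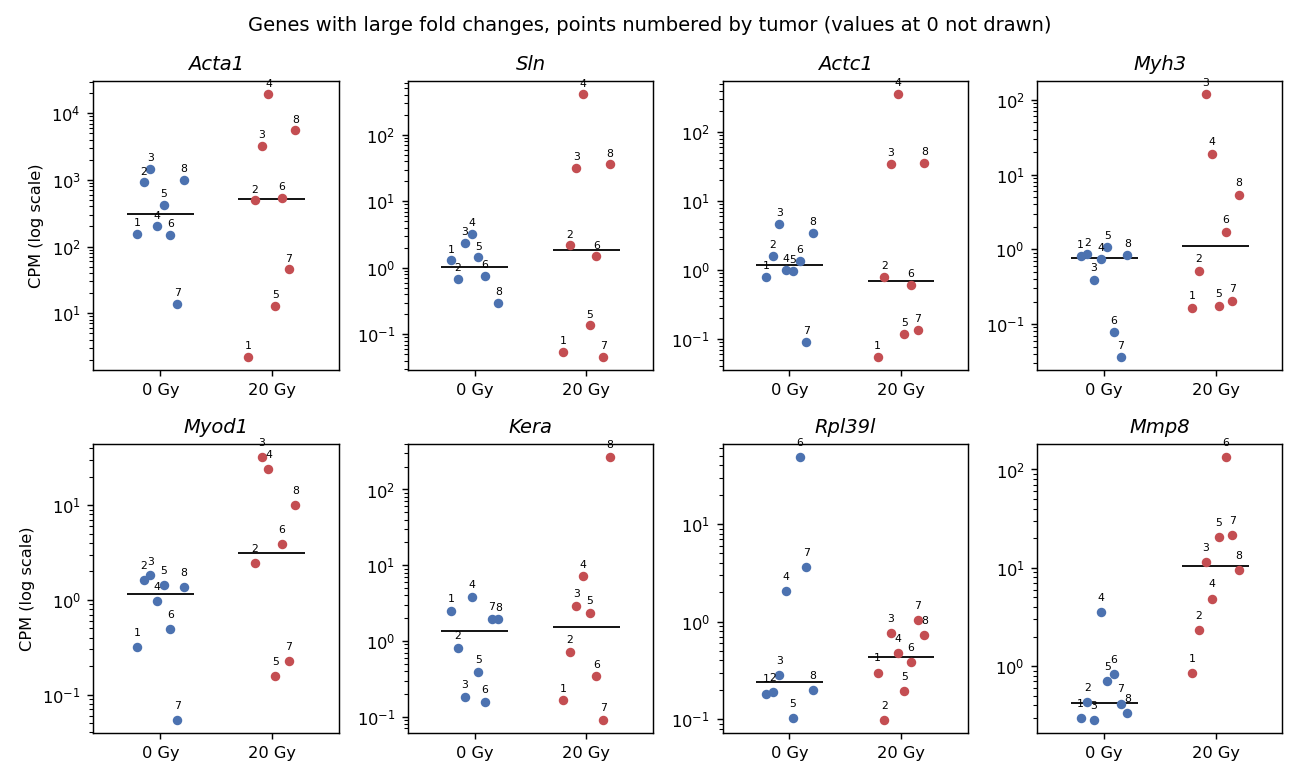
CPM on a log axis of 8 genes with large fold changes in tumors given 0 or 20 Gy, each point numbered by its tumor within the group and values of 0 not drawn; bars are medians. The muscle genes Acta1, Sln, Actc1, Myh3 and Myod1 are highest in irradiated tumors 3, 4 and 8, Kera in tumor 8 alone, and Rpl39l in unirradiated tumor 6 alone, whereas Mmp8 is spread over the irradiated group.

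None of the 12 genes of mature muscle fibers was called by edgeR, although 10 had an unadjusted p under 0.05, DESeq2 called 8 and the median log2 fold change was 2.76. Acta1, skeletal actin, measured 13.9, 312 and 1464 CPM without and 2.19, 515 and 19390 CPM with radiation. Myogenic factors and genes of regenerating fibers did pass: of 9 genes 7 rose, with a median log2 fold change of 3.64. They include Myod1 (3.18, SE 1.01), Myog (3.19), the satellite cell gene Pax7 (3.64) and the fusion protein gene Mymk (4.86, SE 1.25). Myod1 measured 0.0542, 1.17 and 1.81 CPM without and 0, 3.16 and 32.5 CPM with radiation, and 5 irradiated tumors were above all unirradiated ones. Between 2 and 8 myogenic factors were called when a single tumor was left out, with the fewest without irradiated tumor 3 or 4, and limma voom called none. The count was 4 without unirradiated tumor 6 or 7, the call of Myog was lost in 16 of 25 alternatives, and Mymk was at 2.72 and not called without irradiated tumor 3.

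Among the 15 genes with the largest negative change were Mcpt2, Rpl39l, Hand2, Gpc3, Adcy8, Cdh26, Thsd4, Cplx2, Cldn1, AW551984, Rcan2, Samd5, Nptx2 and Gm12415, and the 15 log2 fold changes ran from -4.56 to -1.77. Mcpt2 (chr14:56042041-56044642, plus strand), a protease of mucosal mast cells, measured 0.57, 5.21 and 23.8 CPM without and 0.0196, 0.175 and 1.09 CPM with radiation. In 7 of 8 irradiated tumors Mcpt2 was below all unirradiated ones (-4.56, SE 0.80, adjusted p = 2.24e-04, edgeR). The tight junction gene Cldn1 measured 9.48, 33.9 and 122.1 CPM without and 3.61, 6.49 and 22.1 CPM with radiation (-2.34, SE 0.43, adjusted p = 4.33e-04, edgeR).

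Of these 15 genes, Mcpt2, Adcy8, Cdh26, Cplx2 and Cldn1 were among those called in all 25 alternatives. Gpc3, Thsd4, Nptx2, Gm12415 and Rcan2 lost their call in 11 to 15 of them, Rpl39l in 9, Hand2 and Samd5 in 3 and AW551984 in 1. Without unirradiated tumor 4 the change of Gpc3 was -1.92 and that of Thsd4 -0.95, and without unirradiated tumor 7 that of Hand2 was -2.26, none of them called. Rpl39l, a ribosomal protein gene known for its expression in testis, measured 48.8 CPM in unirradiated tumor 6 and at most 3.61 CPM in the other 15 tumors. Its log2 fold change was -3.78 with and -0.92 without that tumor, and the call was lost.

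Almost no structural or stromal gene was called, where 7.92% of all tested genes were called higher and 3.25% lower. For the shorter of these lists, no called gene is close to those shares. None of 21 extracellular matrix genes was called by edgeR (1 at an unadjusted p under 0.05, median log2 fold change -0.08), and none of 6 contractile, 12 endothelial, 6 adipose or 5 red blood cell genes. Of these, 2 contractile and 2 endothelial genes had an unadjusted p under 0.05, and DESeq2 called 2 endothelial genes. Vim, the only 1 of 10 mesenchymal sarcoma genes called, measured 3489, 4276 and 5001 CPM without and 1737, 2291 and 4309 CPM with radiation (-0.77, SE 0.18, adjusted p = 0.00353, edgeR). Of 10 matrix proteases and inhibitors Mmp13 (1.81, SE 0.48) and Timp1 (1.15) rose and Timp2 fell by 0.64 on the log2 scale, a call lost in 14 of 25 alternatives. Of 15 TGF-beta pathway genes Tgfb3 fell by 1.20 (SE 0.34), and Tgfb1 was at 0.28.

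In the remaining lists few genes were called, where 7.92% of all tested genes were called higher. Nr4a1 and Ier3 rose among 12 immediate early genes (1.34 and 1.55), the endothelial adhesion gene Icam1 among 4 (0.87), the Schwann cell factor gene Sox10 among 6 nerve genes (2.65, at a median of 0.147 CPM with radiation) and Car9 among 11 hypoxia genes (2.24). Car9 reached 70.4 CPM in irradiated tumor 5, and its change was 0.56 without that tumor and no longer called. The calls of Nr4a1 and Icam1 were lost in 12 and 13 of 25 alternatives, and that of Sox10 in 12 of 24. Nr4a1 was at 0.74 without irradiated tumor 2, Ier3 at 1.03 without irradiated tumor 6 and Sox10 at 1.66 without irradiated tumor 4, none of them called.

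Radiation in primary tumors of mice given the isotype antibody is the matched comparison without PD-1 blockade, from 16 other tumors. There 3534 genes were called (18.3% of those tested), 1776 higher (9.19%) and 1758 lower (9.1%). The comparisons shared 1343 called genes, 62.2% of those called with anti-PD-1 and 38% of those called with isotype, and 1342 of them had the same sign. Of the genes called with anti-PD-1, 96.2% had the same sign with isotype, against 73.1% of all genes. The share of calls that were higher with isotype moved from 50.3% to 65.1% when only its own libraries were fitted.

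The difference between both radiation effects was tested directly as an interaction, and edgeR called no gene (0% of genes), with 1168 genes at an unadjusted p under 0.05 and a smallest adjusted p of 0.27. DESeq2 called 9 genes and limma voom none. For Cdkn1a the radiation effect was 2.44 with anti-PD-1 and 2.21 with isotype, a difference of 0.24 (95% interval -0.40 to 0.88). For Irf7 the difference was -0.29 (-1.35 to 0.77), for Cd274 it was -0.61 (-1.67 to 0.44), for Gzmb 0.24 (-1.28 to 1.76) and for Cyp51 0.08 (-0.63 to 0.78). Each of these intervals holds 0.

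The list medians with anti-PD-1 and with isotype were 1.79 and 2.06 for type I interferon-stimulated genes, 1.41 and 2.06 for interferon-gamma genes, 0.82 and 1.24 for MHC class I, -0.93 and -1.15 for cholesterol synthesis and -0.78 and -0.82 for G2/M genes. All 25 interferon-stimulated genes were called higher in both comparisons. Myogenic factors were called in 7 of 9 cases with anti-PD-1 and 0 of 9 with isotype, where the median was 1.35. None was called in the interaction test, although the median difference was 2.46 and 2 genes had an unadjusted p under 0.05. With anti-PD-1 their list mean was 4.85, 4.82 and 3.10 log2 CPM in irradiated tumors 4, 3 and 8. It was -3.42 to 1.77 in the other irradiated tumors and -2.91 to 0.45 in the unirradiated ones. Mmp13 had an effect of 1.81 with anti-PD-1 and 0 with isotype, a difference of 1.81 (95% interval 0.47 to 3.15) that failed the correction (adjusted p = 0.693, edgeR).

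**Figure D5:**
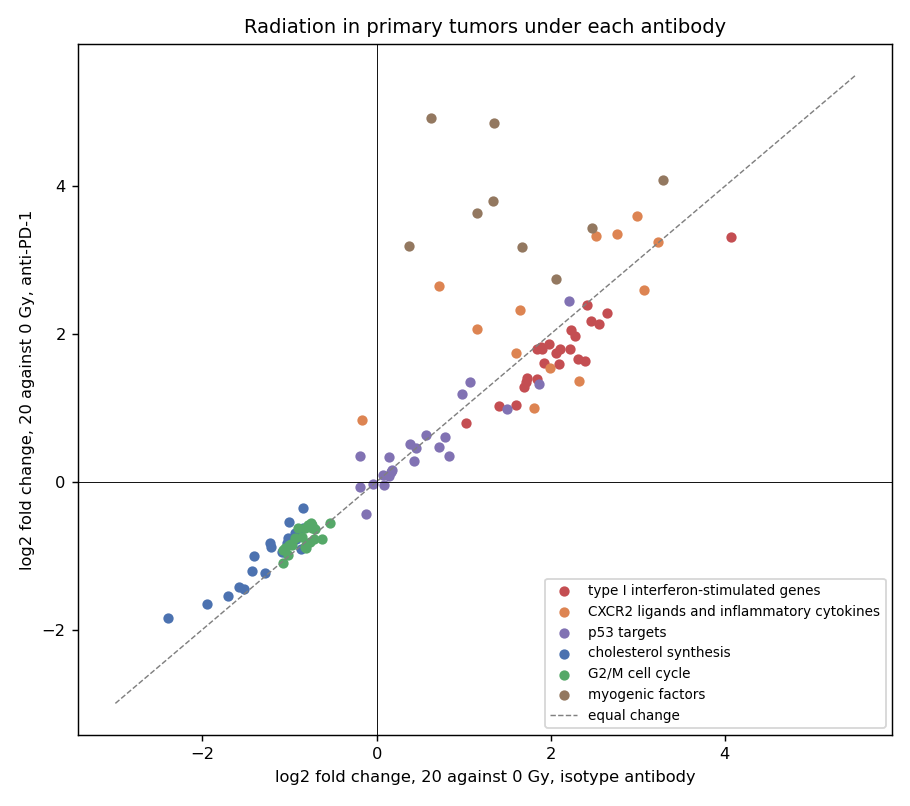
Log2 fold change of radiation with the isotype antibody (x axis) and with anti-PD-1 (y axis) for the genes of 6 lists, each from 8 tumors per dose and antibody; the dashed line marks equal change. G2/M genes lie near the line and all 9 myogenic factors above it. None of the 9 was called in the interaction test, and their list mean with anti-PD-1 was highest in irradiated tumors 4, 3 and 8.

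Transplant tumors, grown in the same muscle of syngeneic mice from a single p53/MCA cell line, gave calls for radiation on anti-PD-1 in 0.595% of the genes tested, 0.538% higher and 0.0569% lower, from 4 tumors per dose. Of the genes called there, 93 were also called in primary tumors, 80.9% of the transplant calls and 4.31% of the primary calls, all with the same sign. The transplant set behind this overlap depended on the settings, with 1 gene called when only its own libraries were fitted, 30 without a filter on low counts, 44 with the Xist covariate and 481 with DESeq2. The test of the difference between the models called no gene with edgeR (0% of genes), with 920 genes at an unadjusted p under 0.05 and a smallest adjusted p of 0.295. DESeq2 called 3 genes and limma voom none.

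The median change of type I interferon-stimulated genes was 1.79 in primary tumors and 1.96 in transplants, and that of cholesterol synthesis -0.93 and -0.94. Neutrophil genes had medians of 2.11 in primary tumors and -1.09 in transplants. The log2 fold change of Mmp8 was 4.91 and -0.14, a difference of 5.05 (95% interval 2.33 to 7.77, unadjusted p = 5.37e-04) that did not pass the correction over all genes. Those of Arg1 were 2.85 and -1.16 and those of F10 3.51 and 0.27, with differences also short of the threshold.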

How the data were processed

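RNA from whole tumors was sequenced from oligo-dT captured, stranded libraries (KAPA). The values were deposited by the authors as raw read counts per gene, whole numbers with no normalization, made with Trimmomatic 0.36, STAR and HTSeq on mm10 with GENCODE annotation. Whether counting used strand is not given in the sources used here, so overlapping and antisense genes, and near-identical families such as Ifit, Slfn, Ifi200 and Gbp genes, are uncertain.

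Counts were analysed in R 4.3.3 with edgeR 4.0.16 (filterByExpr, TMM scaling, robust quasi-likelihood test) in 1 model of 48 tumors in 8 groups, with 2 libraries of line 402230 left out. Of 37469 genes, 19327 were tested, and p-values were adjusted by Benjamini-Hochberg over all of them at a threshold of 0.05. Tumors carry numbers in accession order, which pair nothing. List means used log2 CPM with a prior count of 2. DESeq2 1.42.0, limma 3.58.1 (voom), other scalings, covariates and leaving out libraries gave 25 alternatives, of which leaving out the 3 libraries farthest from their group mean was chosen after seeing the data. Symbols matched 37408 gene identifiers. Promoter windows came from RefSeq on GRCm38.p6. Libraries of a group were compared in 56 pairs and none agreed within sampling noise (lowest chi-square per degree of freedom 85.6, Spearman 0.839 to 0.978). The test was run on simulated counts with known changes, with the same spread in every group and no tumor that stood apart. That simulation cannot check calls that rest on few tumors.

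The named genes were Trp53, the 15 with the largest called change in each direction at an average of at least 2 log2 CPM, plus members of 43 gene lists with 527 distinct genes, of which 524 were tested, and up to 5 per direction called in each interaction. Xist, Y-linked genes and immunoglobulin and T cell receptor segments were not named by size of change. The comparison, the lists and the genes were chosen with earlier results of these data known. Some genes of these lists are not reported here by name, but enter the counts and medians.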

Additional observations from a re-analysis of the deposited data

Results flagged for a closer look

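Among 146 sets of 8 values (list means and named genes in each group), 14 held a tumor whose gap to its nearest neighbour, divided by the range, was above Dixon's 95% critical value for 8 samples. Chance alone marks about 1 in 20 sets that are independent and normally distributed. The sets here come from the same tumors, and some lists share genes, so an excess over that rate cannot be judged.

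Irradiated tumor 5 stood apart in 5 list means. It was low in interferon-gamma genes (4.10 log2 CPM, next tumor 6.07), nucleic acid sensing (4.93, next 5.73), monocyte chemokines (6.02, next 7.22) and the study's myeloid genes (6.35, next 7.85), and high in cholesterol synthesis (5.12, next 4.25). Irradiated tumor 4 was low in the lincRNA gene Gm12415 (-3.12, next 0.14).

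Among unirradiated tumors, tumor 4 was high in neutrophil genes (3.36, next 0.40), in CXCR2 ligands and inflammatory cytokines (3.52, next 1.76) and in Mmp8 (1.84, next -0.18). Tumor 6 was high in G1/S genes (6.83, next 6.09) and G2/M genes (6.81, next 6.15). Tumor 3 was low in monocyte chemokines (6.40, next 6.95), in Adcy8 (-0.23, next 4.25) and in Cdh26 (-2.30, next 1.19). The cause was not tested for any of them.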

How the results depend on the processing

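The count of 2158 called genes ran from 1573 (limma voom) to 2918 (DESeq2) over the alternatives that changed the tool, scaling, filter or a covariate, and was 805 when only its own 16 libraries were fitted. Leaving out 1 tumor gave 1446 (without irradiated tumor 4) to 2882 (without irradiated tumor 1). For the antibody interaction DESeq2 called 9 genes, and leaving out 1 tumor gave 0 to 1. For the tumor model interaction DESeq2 called 3 genes. The isotype count was 2154 with its own libraries. The count of called genes in transplants (0.595% of genes tested) was 481 with DESeq2, 327 with limma voom, 30 without a filter, 1 with its own libraries, 224 with the muscle covariate and 44 with the Xist covariate.

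The direction reversed for genes that were not called. Trp53 was at -0.004 without the 3 libraries farthest from their group mean. H2-Ab1 was at -0.55 with limma voom, -0.15 with the muscle covariate and -0.20 without those 3 libraries. Cd3e was at -1.37, -0.59 and -0.73 under the same settings and at -0.01 with the Xist covariate, Cd8a at -0.72, -0.17 and -0.47, and Cxcr6 at -1.55, -0.52 and -1.18. Ciita was at -0.38 with limma voom. Leaving out 1 tumor gave ranges of -0.48 to 0.53 for H2-Ab1, -1.08 to 0.33 for Cd3e, -0.71 to 0.60 for Cd8a, -1.48 to 0.74 for Cxcr6, -0.08 to 0.87 for Ciita, -1.04 to 0.28 for Gzmk, -0.95 to 0.13 for Cxcr3, -1.03 to 0.13 for Pdcd1 and -0.005 to 0.26 for Trp53. The causes were not tested. Over all single-gene results under alternatives, 4314 kept direction and side of the threshold, 453 lost the call and 41 gained it. No paired analysis was made, because each tumor came from its own mouse and the labels name no pairs. The share of calls that were higher was 70.9%, and 61.5% with limma voom, the alternative that moved it most.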

Other observations

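The genes in this section were chosen after their values were seen. Genes of the Ifi200 family, sensors of DNA and modulators of inflammation encoded side by side, rose beyond the list of sensors. Ifi207 measured 14.4 to 41.7 CPM without and 59.6 to 161 CPM with radiation, with no overlap (log2 fold change 1.86, SE 0.18, edgeR adjusted p = 4.96e-09). Ifi209 and Ifi205 rose by 2.21 and 1.87. Of the Schlafen genes, Slfn1, Slfn2, Slfn5 and Slfn8 rose by 2.48, 1.64, 1.46 and 1.36. These families hold near-identical copies, so single members are uncertain.

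Nr1h3, which encodes the oxysterol receptor LXR alpha, measured 4.12 to 8.14 CPM without and 10.5 to 40.9 CPM with radiation (2.02, SE 0.30, edgeR adjusted p = 4.30e-05). Its target Abcg1, a cholesterol exporter, rose by 1.58 (edgeR adjusted p = 2.72e-04), whereas Abca1 was at 0.72 and not called (adjusted p = 0.0559). Besides Mcpt2, the mast cell genes Tpsb2, Cpa3, Mcpt4 and Cma1 had log2 fold changes of -1.98, -1.95, -2.02 and -1.65 and none passed the test. Il18bp, the binding protein of IL-18, rose by 2.21 (edgeR adjusted p = 5.51e-05) and the lysosomal growth factor gene Grn by 0.92.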
